A study of Mus musculus with 6 samples.

Results

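The genes described here encode immunoglobulin A and secreted antimicrobial proteins of the mucosal surface. They are Igha, Jchain, Pigr, Bpifb1, Ltf, Lcn2, Reg3g, Reg3b, Dmbt1 and Slpi, and all probe sets whose platform annotation gives 1 of these symbols were taken. That gave 15 probe sets for 10 of the 12393 genes with a single symbol on the array. The genes were chosen by name after their measured differences between Satin and the control strains on these arrays were known. Their values in Satin are therefore a description, without a test.

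The measurements are Affymetrix array signals of RNA from the stomach antrum, the distal part of the stomach, of mice of 3 strains, with 2 arrays for each strain. Satin mice carry a mutation in Foxq1, which encodes a forkhead transcription factor, and the study looked at gastric cell lineages in relation to it. Beige mice carry a mutation in Lyst, a gene of lysosome trafficking, and like C57/BL6 mice (here BL6) they were titled controls. The labels used here name no age, sex, diet or infection status, no background strain for the Satin and Beige mice, and no treatment of any group.

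Immunoglobulin A is made by plasma cells in the lamina propria as a dimer held together by the joining chain. The polymeric immunoglobulin receptor of epithelial cells binds the dimer and carries it to the lumen. Epithelial cells, glands and neutrophils add antimicrobial proteins, among them C-type lectins of the Reg3 family, metal-binding proteins, scavenger receptor proteins and protease inhibitors. In a bulk sample fewer cells of a type and less RNA per cell cannot be told apart.

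The upstream sequences of the genes are shown before the values, because the Reg3 lectins were highest on the same arrays, while Jchain and Bpifb1 were highest in Satin. RefSeq's table on GRCm38.p6 held the 250 bases before the start for 8 of the 10 genes, in 9 windows. Each is written 5′ to 3′ on the strand of the gene, and capitals mark a match to a motif searched on both strands. Reg3g lies on the minus strand at chr6:78468875-78469124, Reg3b on the plus strand at chr6:78370635-78370884 and Jchain on the minus strand at chr5:88527898-88528147. The windows of Bpifb1, for its alternative starts, lie on the plus strand at chr2:154190568-154190817 (window 1) and chr2:154200130-154200379 (window 2).
Reg3g: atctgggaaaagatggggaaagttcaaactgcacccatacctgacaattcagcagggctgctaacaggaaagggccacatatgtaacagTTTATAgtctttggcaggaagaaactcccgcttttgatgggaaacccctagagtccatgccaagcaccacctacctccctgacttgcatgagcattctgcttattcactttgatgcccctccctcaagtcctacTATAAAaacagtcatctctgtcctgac
Reg3b: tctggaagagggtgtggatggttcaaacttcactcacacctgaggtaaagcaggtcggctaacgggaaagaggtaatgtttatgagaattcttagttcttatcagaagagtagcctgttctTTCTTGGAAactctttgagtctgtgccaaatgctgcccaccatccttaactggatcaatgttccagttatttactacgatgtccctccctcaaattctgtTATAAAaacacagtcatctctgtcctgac
Jchain: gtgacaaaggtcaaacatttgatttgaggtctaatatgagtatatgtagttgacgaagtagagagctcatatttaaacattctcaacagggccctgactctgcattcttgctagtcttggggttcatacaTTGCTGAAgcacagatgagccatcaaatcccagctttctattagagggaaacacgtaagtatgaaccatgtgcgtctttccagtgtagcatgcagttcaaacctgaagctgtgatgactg
Bpifb1 window 1: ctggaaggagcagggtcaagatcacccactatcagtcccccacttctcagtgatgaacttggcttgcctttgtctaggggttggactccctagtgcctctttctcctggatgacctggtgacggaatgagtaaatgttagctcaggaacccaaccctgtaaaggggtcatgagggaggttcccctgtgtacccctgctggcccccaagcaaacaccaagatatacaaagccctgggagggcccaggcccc
Bpifb1 window 2: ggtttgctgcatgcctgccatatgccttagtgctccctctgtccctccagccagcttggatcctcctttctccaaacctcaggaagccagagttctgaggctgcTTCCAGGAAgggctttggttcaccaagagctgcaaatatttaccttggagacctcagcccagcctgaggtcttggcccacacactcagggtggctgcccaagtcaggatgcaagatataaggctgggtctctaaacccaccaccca

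The upstream windows of Reg3g and Reg3b matched at 173 of 250 bases (69.2%), and their last 50 bases matched at 86%. The other 35 pairs of windows matched at 47.2% to 58.0%. Of 6 motifs searched, the TATA box TATAAA began 27 bases before the start in Reg3g and 29 bases before it in Reg3b, and 12.4% of 32851 windows of this length in the table hold it. A second TATAAA match in Reg3g, on the opposite strand, lay 161 to 156 bases before the start. The STAT motif TTCNNNGAA was found in Reg3b, 129 bases before the start, and in window 2 of Bpifb1, 146 bases before it, against 7.02% of all windows. The C/EBP motif TTGCNNAA was found in Jchain, 120 bases before the start, and in the windows of Ltf, Lcn2 and Slpi, against 9.56% of all windows. The octamer ATGCAAAT (1.6% of windows), an NF-kB motif (GGG, 2 free bases, TTTCC; 1.41%) and an IRF motif (GAAA, 2 free bases, GAAA; 2.98%) had no match in the 9 windows. No 2 of these motifs overlapped where they matched. A match of letters is a description of the sequence and not a binding site.

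Levels below are of 2 kinds. A signal is the deposited linear intensity of a probe set. A log2 level is log2(signal + 32) after quantile normalization between arrays, and differences are taken between such levels, so that the change of a dim gene is understated. Where a gene has several probe sets, the one with the highest mean stands for it in the fit.

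The arrays differed in ways that touch these genes. The median signal was 74.15 and 58.6 in Satin, 49.5 and 49 in Beige, and 47.6 and 38.2 in BL6. As a sign of RNA integrity the 5′ Gapdh signal was set against the 3′ one: the ratio was 0.526 for BL6 replicate 1, while the 5 further arrays had 0.988 to 1.18. Pancreatic acinar genes (15 tested) stood high on every replicate 2 array, with a list mean of 11.54 on Satin replicate 2, 9.65 on Beige replicate 2 and 12.77 on BL6 replicate 2, against 7.01 to 7.38 on the replicate 1 arrays. Over 17 markers of antral epithelium the mean log2 level was 11.00 and 11.07 in Satin, 11.32 and 11.38 in Beige, and 11.30 and 11.24 in BL6, and 2 of the markers fell in Satin while 15 did not pass. Those that fell were Muc5ac, the surface mucin, at 8.56 and 8.58 in Satin against 12.65 to 13.11 on the control arrays, and Gast, the gastrin gene, which differed by -1.40 (SE 0.23, limma adjusted p = 0.0187). Foxq1 had log2 levels of 10.46 and 10.41 in Satin, 9.88 and 9.38 in Beige, and 10.13 and 10.17 in BL6. Lyst had 6.09 and 5.68 in Satin, 6.92 and 6.06 in Beige, and 6.64 and 6.62 in BL6. Neither value checks the labels, since a mutated gene can keep its transcript level.

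**Figure D1:**
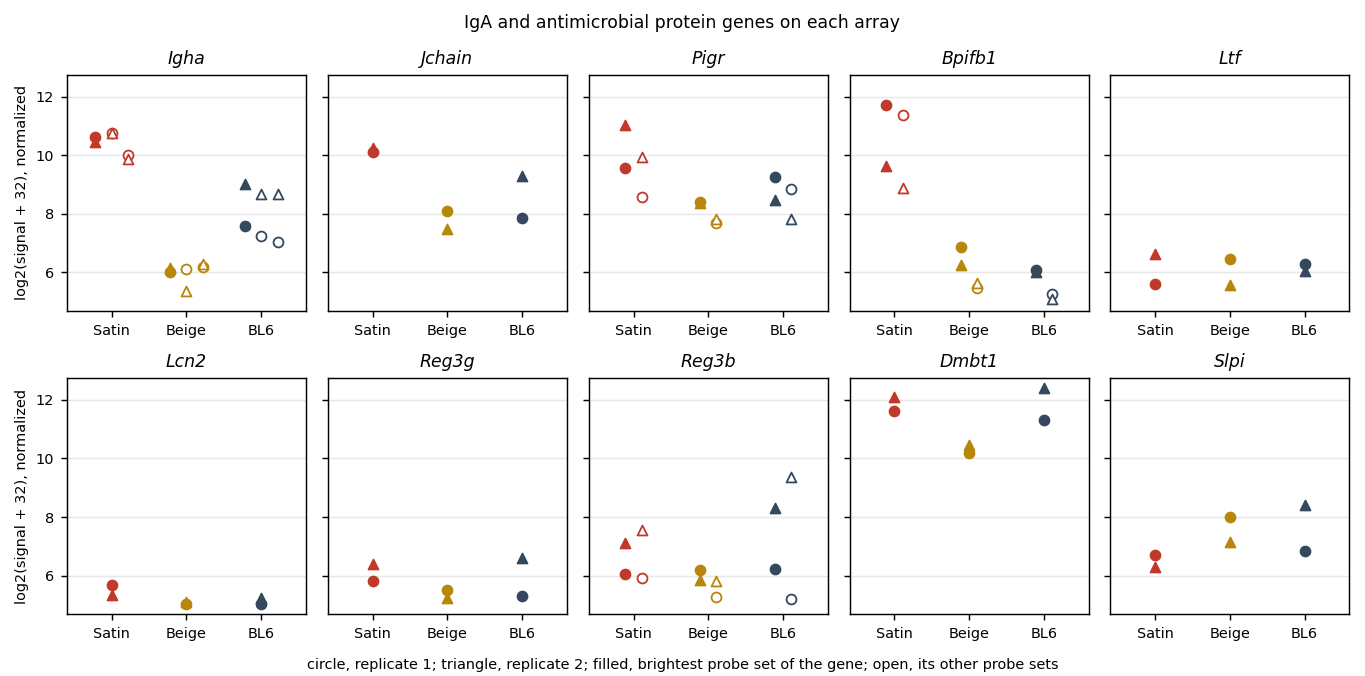
Log2 level, log2(signal + 32) after quantile normalization, of each of the 10 genes in Satin, Beige and BL6 antrum, with 1 point for each array (circle, replicate 1; triangle, replicate 2), filled for the brightest probe set and open for other probe sets. Both Satin points of Igha, Jchain, Pigr and Bpifb1 lie above all control points of the same brightest probe set, and those of Slpi lie below them.

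The genes for immunoglobulin A itself stood highest in Satin. Igha, the constant region of the alpha heavy chain, had signals of 1922.4 and 1710.7 in Satin, 32.5 and 36.4 in Beige, and 129 and 392.2 in BL6. The groups did not overlap: both Satin arrays were far above all others, and both Beige arrays were below both BL6 arrays. The mean log2 level was 10.53 ± 0.10 in Satin, 6.09 ± 0.11 in Beige and 8.30 ± 1.03 in BL6 (SD, n = 2 each). Satin exceeded the mean of the controls by 3.34 (SE 0.33), which is 10.1-fold on this scale. Against Beige the difference was 4.44 and against BL6 2.23, both from the same Satin arrays.

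The other Igha probe sets ordered the strains alike. Their log2 differences between Satin and the controls were 3.90 and 2.89. One of them had signals of 2136.3 and 2047.6 in Satin, 36.7 and 9 in Beige, and 99.4 and 301.5 in BL6. The brightest Igha probe set and the one with the difference of 2.89 both have the suffix _x_at. It means that some of their probes also match other sequences, as may happen among immunoglobulin constant regions.

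Jchain, the joining chain that links the immunoglobulin monomers, was high in Satin too, by less. Its signals were 1385.8 and 1463.3 in Satin, 198.9 and 154.7 in Beige, and 160.3 and 483.6 in BL6. The log2 levels averaged 10.18 ± 0.11 in Satin, 7.79 ± 0.42 in Beige and 8.58 ± 1.03 in BL6 (SD, n = 2 each), and both Satin arrays stood above all control arrays. The difference from the mean of the controls was 2.00 (SE 0.35), or 3.99-fold. Unlike Igha, Jchain overlapped between the control strains, with Beige replicate 1 above BL6 replicate 1. In both genes BL6 replicate 2 was the highest control array, 1.46 above BL6 replicate 1 on the log2 scale for each.

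Pigr, the epithelial receptor that carries dimeric immunoglobulin A to the lumen, was highest on Satin replicate 2. Signals of its brighter probe set were 971.2 and 2542.6 in Satin, 253.6 and 327.8 in Beige, and 445.3 and 254.7 in BL6. Its log2 level averaged 10.30 ± 1.05 in Satin, 8.38 ± 0.02 in Beige and 8.86 ± 0.56 in BL6 (SD, n = 2 each). Both Satin arrays lay above the controls with this probe set, whereas with the dimmer one Satin replicate 1 (8.58) lay below BL6 replicate 1 (8.84). Satin differed from the mean of the controls by 1.68 (SE 0.36), or 3.20-fold. The size rested on Satin replicate 2: without it the difference was 0.94, and without Satin replicate 1 it was 2.45.

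Bpifb1, a secreted protein of the family of bactericidal permeability-increasing proteins that is made by mucous glands, showed the greatest separation between Satin and the controls among the 10 genes. Its signals were 3872.4 and 954.7 in Satin, 74.9 and 41.4 in Beige, and 34.5 and 23 in BL6. Every control array was dim and both Satin arrays were bright, and Satin replicate 1 was the brighter of them. The log2 levels averaged 10.68 ± 1.47 in Satin, 6.56 ± 0.42 in Beige and 6.05 ± 0.06 in BL6 (SD, n = 2 each). The difference between Satin and the controls was 4.37 (SE 0.46), or 20.7-fold, and the second probe set gave 4.75. It was 3.32 without Satin replicate 1 and 5.37 without Satin replicate 2.

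**Figure D2:**
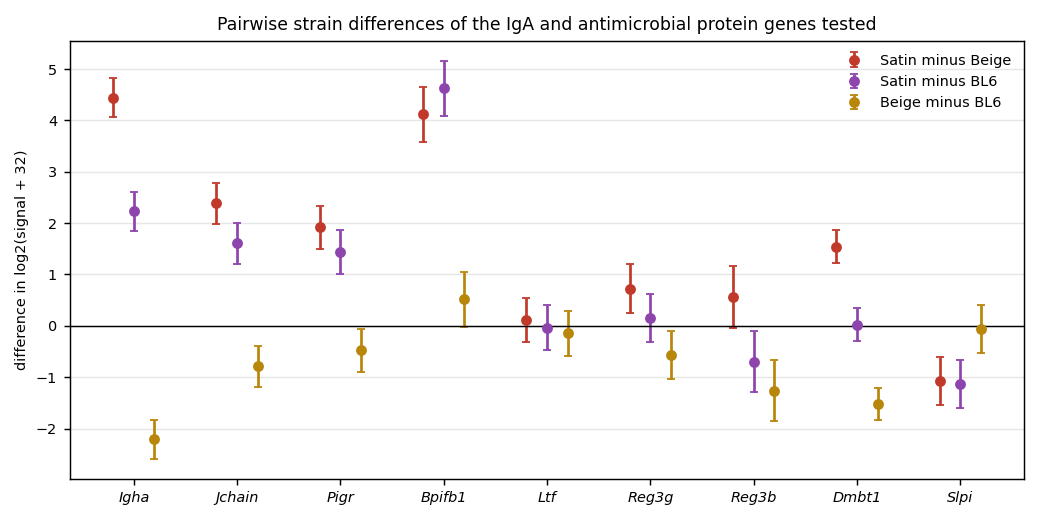
Differences in log2(signal + 32) between strains for the 9 genes that passed the filter on low values, with the SE of the fit, for Satin minus Beige, Satin minus BL6 and Beige minus BL6. Igha, Jchain, Pigr and Bpifb1 lie above 0 in both Satin differences and Slpi below 0, while Dmbt1 lies at 1.54 for Satin minus Beige, 0.02 for Satin minus BL6 and -1.52 for Beige minus BL6.

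Dmbt1, a scavenger receptor protein of mucus that binds bacteria, separated Beige from the other strains. Signals were 3650 and 5093.2 in Satin, 982.4 and 1553.1 in Beige, and 1882.6 and 5577.3 in BL6. Satin and BL6 overlapped, and both Beige arrays lay below all of their arrays. Mean log2 levels were 11.87 ± 0.33 in Satin, 10.32 ± 0.20 in Beige and 11.84 ± 0.77 in BL6 (SD, n = 2 each). Satin minus the mean of the controls was 0.78 (SE 0.27), made up of 1.54 against Beige and 0.02 against BL6.

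The lectins Reg3b and Reg3g, C-type lectins that bind bacterial surfaces, were highest on the replicate 2 arrays of BL6 and Satin. In Beige the replicate 2 array was not the higher one, except on the second Reg3b probe set. Reg3b had signals of 50.1 and 126.5 in Satin, 40.4 and 22.2 in Beige, and 40.4 and 227.2 in BL6. Its second probe set spread further, with 41.6 and 193.3 in Satin, 5.8 and 21.3 in Beige, and 4 and 501.2 in BL6. On both probe sets Satin replicate 2 came next after BL6 replicate 2. The first of these probe sets has the suffix _s_at, which marks probes shared between transcripts.

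Reg3g was dim, with signals of 36 and 57.6 in Satin, 12.5 and 5.5 in Beige, and 6.1 and 48.6 in BL6. Its mean stood at the 33.3rd percentile of probe sets, just inside the filter. Both Beige signals lay below both Satin signals, and BL6 overlapped both strains. Satin minus the controls was -0.06 (SE 0.52) for Reg3b and 0.44 (SE 0.41) for Reg3g, so both differences were about as large as their errors or smaller. On the 3 replicate 1 arrays alone Reg3b differed by -0.15, and on the 3 replicate 2 arrays alone by 0.02.

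The arrays where the Reg3 genes were high are those with the most pancreatic RNA. The summed signal of the pancreatic acinar list was 14302.2 and 62504.3 in Satin, 12638.6 and 22759.5 in Beige, and 11304.6 and 127924 in BL6. Reg1, a secreted lectin that the acinar pancreas also makes, had signals of 63.1 and 2900.9 in Satin, 50.1 and 298.1 in Beige, and 32 and 8895.6 in BL6. Reg3d, a relative of the Reg3 genes, had 56.4 and 92 in Satin, 56.5 and 30.3 in Beige, and 36.1 and 558.3 in BL6. Reg2 had 25 and 272.8 in Satin, 16.1 and 66.7 in Beige, and 13.4 and 808.6 in BL6. Other Reg genes did not follow this course. Reg4 had 20 and 34.7 in Satin, 25.6 and 24.2 in Beige, and 26.8 and 22.1 in BL6. Reg3a, which did not pass the filter, stayed at 2.9 to 24.8. Reg1, Reg2, Reg3d, Reg4 and Reg3a were picked after their values were seen. The part of pancreatic RNA in the Reg3 levels was not tested. With the mean of the acinar list as a covariate in the fit, an alternative chosen after the data were seen, the differences between Satin and the controls were -0.10 for Reg3b and 0.42 for Reg3g. With this covariate the Satin differences of other genes were 3.32 for Igha, 1.98 for Jchain and 1.67 for Pigr. They were 4.40 for Bpifb1, 0.76 for Dmbt1 and -1.11 for Slpi. The acinar list mean was 7.15 and 11.54 in Satin, 7.38 and 9.65 in Beige, and 7.01 and 12.77 in BL6. It was spread over Satin and the controls alike, so the covariate could hardly move this contrast, and nothing is read from it.

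**Figure D3:**
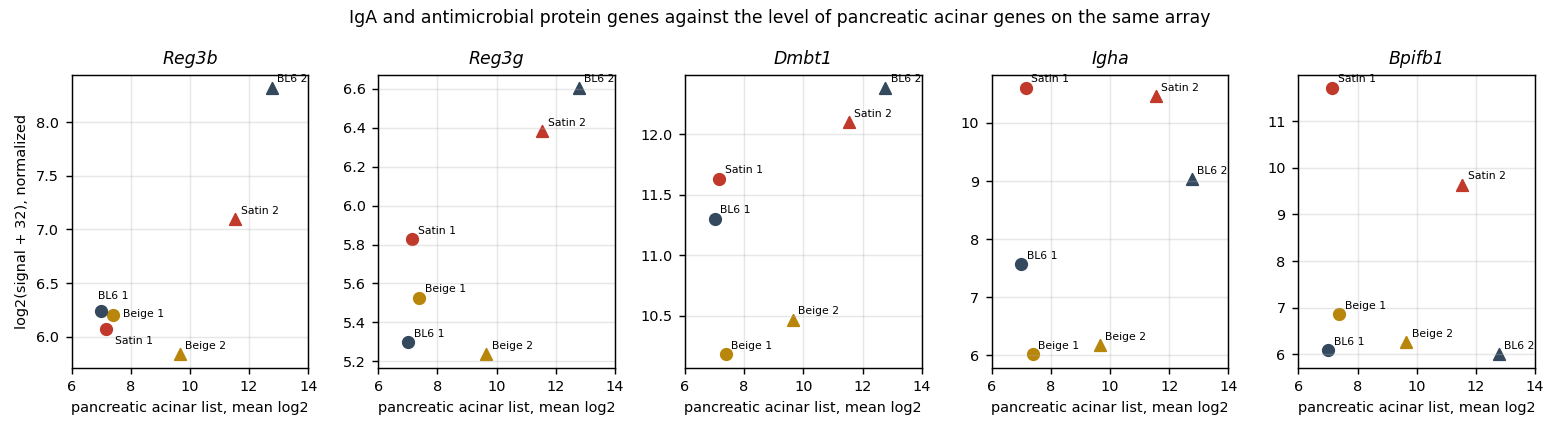
Log2 level of Reg3b, Reg3g, Dmbt1, Igha and Bpifb1 (vertical axes, log2(signal + 32), ranges differ between panels) against the mean log2 level of the pancreatic acinar list on the same array (horizontal axes), with 1 point for each of the 6 arrays. Reg3b, Reg3g and Dmbt1 are highest on BL6 replicate 2, where the acinar list is at 12.77, while Igha and Bpifb1 are highest on Satin replicate 1, where it is at 7.15.

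Slpi, an inhibitor of leukocyte proteases with antimicrobial activity, was the single gene of the 10 with both Satin arrays below all controls. Its signals were 101.7 and 51.6 in Satin, 184.5 and 113.3 in Beige, and 71.9 and 245.2 in BL6. The raw signal of BL6 replicate 1 fell between the Satin arrays, and after normalization it lay at 6.85, just above Satin replicate 1 at 6.71. Mean log2 levels were 6.5 ± 0.29 in Satin, 7.57 ± 0.59 in Beige and 7.63 ± 1.11 in BL6 (SD, n = 2 each). The difference was -1.10 (SE 0.41) against the mean of the controls.

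The genes of iron-related proteins in the group were Ltf, whose mean lay at the 43rd percentile of probe sets, and Lcn2, near the bottom of the range. Ltf, lactoferrin, an iron-binding protein of neutrophil granules and secretions, had signals of 25.5 and 78.2 in Satin, 52.8 and 14.2 in Beige, and 42.2 and 24.3 in BL6. The strains overlapped, and Satin differed from the controls by 0.04 (SE 0.38). Lcn2, lipocalin, which takes up bacterial siderophores, had signals of 29.2 and 10.4 in Satin, 1.3 and 2 in Beige, and 1.1 and 4.2 in BL6. Both Satin signals of Lcn2 were above all control signals. Its mean lay at the 6.29th percentile of probe sets, it did not pass the filter, and it was the single gene of the 10 left out of the fit.

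Read against all genes, both Satin arrays lay above all 4 control arrays for 4 of the 9 genes tested and below them for 1. Over all 9395 genes tested 10.9% lay above and 12.7% below. Of the 9 genes 3 had a Benjamini-Hochberg adjusted p under 0.05 for Satin against the mean of the controls, where 1.44% of all genes did. Since the genes were chosen with this contrast known, nothing is read from these counts.

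The comparison of the control strains sets none of the Satin arrays against another group, and it was tested with limma over all genes. No gene of the 9395 was called at an adjusted p under 0.05 (0%), and 482 (5.13%) had an unadjusted p under 0.05. None of the 9 genes was called, and 2 of them, Igha and Dmbt1, had an unadjusted p under 0.05. Of the 9 differences between Beige and BL6, 8 were below 0, while over all 9395 genes tested 4585 lay above 0. Of the 8, Slpi and Ltf turned above 0 when scaled to the hybridization controls and Slpi also as deposited. Both Beige arrays lay below both BL6 arrays for 4 of the 9 genes, namely Igha, Pigr, Reg3b and Dmbt1, and for 15.7% of all genes. As deposited, Pigr overlapped and Reg3b tied at 40.4 between these strains, and the second Reg3b probe set overlapped.

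Igha differed by -2.21 between Beige and BL6 (SE 0.38), with BL6 4.62-fold above Beige, and did not pass (limma adjusted p = 0.755). It passed with the arrays as deposited (-1.98, adjusted p = 0.047), scaled to the hybridization controls (-1.82, adjusted p = 0.015) and without BL6 replicate 1 (-3.0, adjusted p = 0.0028). The other Igha probe sets gave -2.23 and -1.62. Dmbt1 differed by -1.52 (SE 0.32, limma adjusted p = 0.864), with BL6 2.87-fold above Beige, and passed without BL6 replicate 1 (-2.05, adjusted p = 0.03). BL6 replicate 1 is the array with the low Gapdh ratio, and BL6 replicate 2 has the most pancreatic RNA. The part of either in these differences was not tested.

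On the probe sets used in the fit the other genes differed less between the control strains, while the second Reg3b probe set gave -1.74. Reg3b stood at -1.26 (SE 0.60, limma adjusted p = 0.864), and at -2.36 without BL6 replicate 1 and -0.23 without BL6 replicate 2. Jchain stood at -0.78 (SE 0.40, limma adjusted p = 0.864), and at -1.54 and -0.06 with the same arrays left out. Pigr differed by -0.48, Reg3g by -0.57, Bpifb1 by 0.51, Ltf by -0.15 and Slpi by -0.06, with limma adjusted p between 0.885 and 0.99. With 2 arrays a strain, a difference of this kind that does not pass is not evidence that the strains are alike.

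Other genes of mucosal defence were taken from 4 lists with 138 genes, 120 of them on the array and 78 tested. In Satin against the mean of the controls 4 of the 78 were called with limma (5.13%, against 1.44% of all genes), 1 higher and 3 lower, and 74 did not pass. Their median difference was -0.06, against -0.0015 over all genes. The 1 called higher, S100a8, passed the filter through its Satin level, so nothing is read from the share of calls. With the replicate number as a block 2 of the 4 remained, since the adjusted p was 0.065 for both Ang and Tgfbr2.

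Among 33 other secreted antimicrobial proteins tested, 1 rose, 1 fell and 31 did not pass (median difference -0.20). S100a9, the partner of S100a8 in the zinc-binding calprotectin of neutrophils, did not pass the filter and is given with the neutrophil markers below. S100a8, the subunit that was tested, had signals of 149.3 and 162.1 in Satin, 5.2 and 10.7 in Beige, and 3.2 and 17.7 in BL6. It rose in Satin by 1.83 (SE 0.30, limma adjusted p = 0.0219), and the groups were far apart. The adjusted p was 0.187 and 0.225 without Satin replicate 1 or 2, 0.109 and 0.0829 without Beige replicate 1 or 2, and 0.0591 with a pseudocount of 8.

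Ang, a secreted ribonuclease, had signals of 63.3 and 76 in Satin, 121.3 and 133.8 in Beige, and 111.6 and 131.5 in BL6. It fell in Satin by 1.02 (SE 0.20, limma adjusted p = 0.0467), with both Satin arrays below all controls. Its call was lost in 12 of 16 other settings, among them the omission of either Satin array, either Beige array or BL6 replicate 2, with an adjusted p of up to 0.517.

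Several antimicrobial genes that did not pass are named here after their values were seen. Itln1, an intelectin that binds microbial sugars, had signals of 83.3 and 354.7 in Satin, 13 and 2.6 in Beige, and 2.6 and 3.7 in BL6. Its difference was 2.16 (SE 0.46, limma adjusted p = 0.0597), with both Satin arrays above all controls. Itln1 passed the filter through its mean log2 level of 7.41 in Satin. Its means of 5.33 in Beige and 5.16 in BL6 lie under the filter cut of 5.74. Nothing is read from the difference of Itln1 or its p. Zg16, a lectin-like protein of intestinal goblet cells, had signals of 87.2 and 3342.5 in Satin, 2444.4 and 2785.1 in Beige, and 1673.3 and 8305.2 in BL6. Satin replicate 1 stood alone at a low value, and the difference of -2.62 had an SE of 1.05 (limma adjusted p = 0.327). Beside Zg16, the mean log2 level of 16 markers of small intestinal epithelium was 7.09 and 7.81 in Satin, 8.04 and 7.94 in Beige, and 7.87 and 7.86 in BL6. Of these markers 2 were called lower in Satin with limma (12.5%, against 1.44% of all genes), and 14 did not pass. Lyz1 and Lyz2, the lysozymes, differed by -0.21 and -0.20 (limma adjusted p = 0.808 and 0.789).

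The list of genes for switching to immunoglobulin A, plasma cell survival, homing and transport had 16 tested members, of which 1 fell and 15 did not pass (median difference 0.09). The one that fell was Tgfbr2, a subunit of the receptor of transforming growth factor beta, with a log2 difference of -0.79 (SE 0.16, limma adjusted p = 0.0454). Its signals were 222.1 and 215.6 in Satin, 216.3 and 339.1 in Beige, and 265.7 and 274.7 in BL6, so as deposited Satin replicate 1 stood above Beige replicate 1. With the arrays as deposited the difference was -0.27 (adjusted p = 0.392), and with the mean of its probe sets it was -0.08 (adjusted p = 0.902). The call was lost in 12 of 16 other settings, including the omission of either Satin array, either Beige array or BL6 replicate 1.

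Tgfb1, a cytokine that directs switching to immunoglobulin A, had signals of 79.8 and 67 in Satin, 2.7 and 6.1 in Beige, and 12.5 and 30.2 in BL6. The strains stood in the order of Igha, with Satin highest and Beige lowest and no overlap. The control signals were dim, with a mean log2 level of 5.18 in Beige and 5.88 in BL6 beside the filter cut of 5.74. Their order is thus one of signals near the floor. Its differences of 0.95 between Satin and the controls (SE 0.31, limma adjusted p = 0.227) and -0.69 between Beige and BL6 (SE 0.36, limma adjusted p = 0.864) did not pass.

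Of 25 inducing cytokines, receptors and signalling genes tested, 1 fell and 24 did not pass (median difference -0.03). Il18, an epithelial cytokine of the interleukin-1 family, had signals of 1307.2 and 1203.2 in Satin, 2112.3 and 1974.7 in Beige, and 1629.9 and 1599.2 in BL6. It fell in Satin by 0.99 (SE 0.15, limma adjusted p = 0.0144), with both Satin arrays below all controls. The call was lost with each other scaling of the arrays (adjusted p 0.063 as deposited, 0.0713 after median centring and 0.0906 when scaled to the hybridization controls), with no variance trend (0.128), and without Satin replicate 1 (0.136), Satin replicate 2 (0.0798), Beige replicate 1 (0.111) or Beige replicate 2 (0.0547). The difference stayed below 0 in all 16 settings.

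Among 5 genes of epithelial oxidant defence 0 were called with limma and 0 had an unadjusted p under 0.05. All 5 lay above 0, with a median difference of 0.27, and 4680 of all 9395 genes tested lay above 0. Cybb and Cyba, subunits of the phagocyte oxidase, did not pass, with 0.53 for Cybb (SE 0.31, limma adjusted p = 0.54) and 0.47 for Cyba (SE 0.28, limma adjusted p = 0.557).

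**Figure D4:**
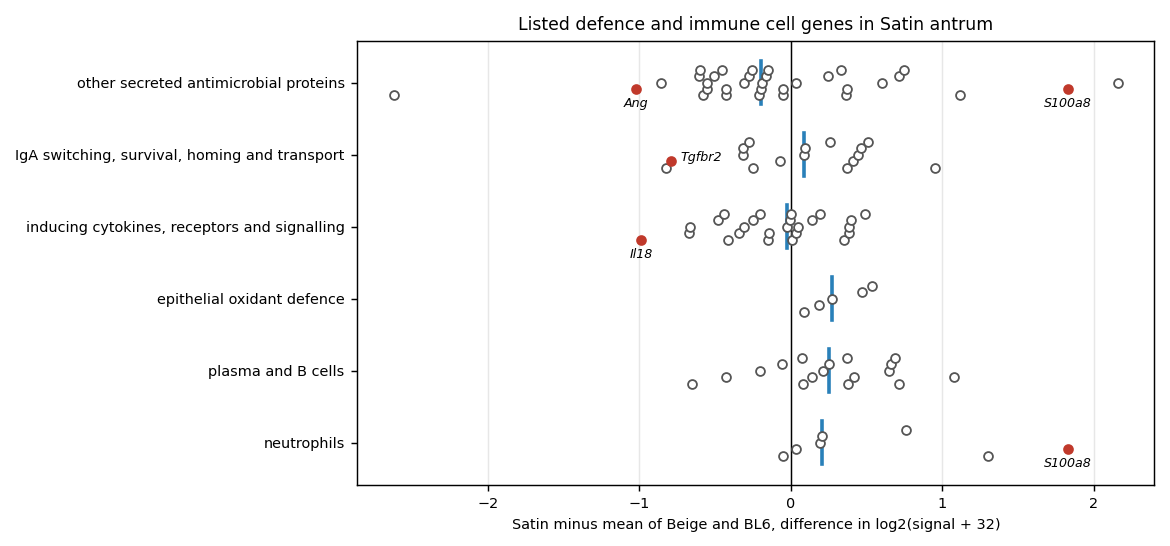
Difference in log2(signal + 32) between Satin and the mean of Beige and BL6 for each tested gene of 4 defence lists and of the plasma and B cell and neutrophil marker lists, with a vertical bar at each list's median and filled points for genes called at an adjusted p under 0.05. S100a8 lies at 1.83, Tgfbr2 at -0.79, Il18 at -0.99 and Ang at -1.02, and the list medians lie between -0.20 and 0.27.

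Between the control strains 0 of the 78 listed genes were called with limma, and 4 had an unadjusted p under 0.05, against 5.13% of all genes. Retnla, a resistin-like secreted protein, had signals of 1155.4 and 657.1 in Beige, against 121.6 and 347.2 in BL6. Its difference of 1.65 (SE 0.44, limma adjusted p = 0.864) passed with the arrays as deposited (1.91, adjusted p = 0.047) and scaled to the hybridization controls (2.09, adjusted p = 0.00972). The other genes with the smallest p of their lists were Lyz2 (0.71), Tgfb1 (-0.69), Relb (0.65), Il1rn (-0.96), Tlr2 (-0.78), Duoxa1 (0.79) and Cybb (0.73), none of which passed in that fit.

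Markers of the cells that make these proteins are given beside them. Of 28 plasma and B cell markers 21 were on the array and 17 tested, with 0 called with limma. In Satin 4 had an unadjusted p under 0.05, 13 lay above 0 and the median difference was 0.25. Over all 9395 genes tested 12.6% had such a p in this contrast, and 4680 lay above 0. The list mean was 7.02 and 7.51 in Satin, 7.19 and 7.03 in Beige, and 6.61 and 7.21 in BL6, which overlap. The summed signal of the list was 6192.1 and 7248 in Satin, 4741.6 and 4681.9 in Beige, and 3175 and 4241 in BL6, with both Satin arrays above all controls. These sums are of signals before normalization. The median signal of all probe sets was also higher in Satin (74.15 and 58.6) than on the control arrays (38.2 to 49.5). Xbp1 alone had signals of 3309.7 and 2874.7 in Satin and 1725.8 to 2159.1 on the control arrays. Nothing is read from the sums. Cd74, an invariant chain of antigen presentation, differed by 0.65 (SE 0.17, adjusted p = 0.121), and Sdc1, a plasma cell marker that epithelium also makes, by -0.43 (SE 0.15, adjusted p = 0.258), which turned to 0.11 with the arrays as deposited.

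Single markers of these cells differed in their order. Iglv1, a light chain variable segment, had signals of 128.6 and 147 in Satin, 16.5 and 47.2 in Beige, and 5.6 and 61.4 in BL6. Its difference was 1.08 (SE 0.42, limma adjusted p = 0.313), and that of Spib, a B cell transcription factor, was 0.71 (SE 0.26, limma adjusted p = 0.272), each with both Satin signals above all controls and neither past the test. Iglv1, Spib, Ighm, Xbp1 and Pax5 were picked after their values were seen. Ighm, the heavy chain of immunoglobulin M, was not highest on both Satin arrays. Its signals were 332.2 and 1440.8 in Satin, 955.1 and 722.6 in Beige, and 81.5 and 705.3 in BL6. The strains overlapped widely, and the difference between Satin and the controls was 0.07 (SE 0.74, limma adjusted p = 0.982). Xbp1, a transcription factor of secretory cells including plasma cells, differed by 0.21 (adjusted p = 0.60). No plasma cell marker was listed at a signal of 0, and Pax5, a B cell factor, had signals of 2.4 to 4.9 on all arrays. The part of plasma cell number in the Igha and Jchain levels was not tested.

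Of 15 neutrophil markers 13 were on the array and 7 tested. S100a8, also on the list of antimicrobial proteins, was the 1 that rose, and 3 had an unadjusted p under 0.05, against 12.6% of all genes. The list mean was 6.46 and 6.43 in Satin, 5.73 and 5.81 in Beige, and 5.75 and 6.03 in BL6, with both Satin arrays above all controls. This mean covers only the markers that passed the filter. S100a8 passed through its Satin level of 7.24, since 5.33 in Beige and 5.49 in BL6 lie under the cut of 5.74. The height of the list mean in Satin and the count of markers with a small p are thus partly set by the filter. Nothing is read from either. The summed signal was 704.2 and 640.6 in Satin, 253.1 and 214.3 in Beige, and 236 and 216.2 in BL6. It is also a sum before normalization, on arrays whose median signal was higher in Satin, and nothing is read from it. Cd177, a neutrophil surface protein, had signals of 108.4 and 84.4 in Satin, 3.9 and 13.3 in Beige, and 1.8 and 22.2 in BL6 (difference 1.30, SE 0.34, limma adjusted p = 0.126). The control signals of Cd177 were near the floor too, and nothing is read from its difference. Csf3r, the receptor of a neutrophil growth factor, differed by 0.76 (SE 0.28, limma adjusted p = 0.28). For both genes the Satin arrays lay above all controls. S100a9 overlapped, with signals of 21.2 and 92.4 in Satin, 13.7 and 2.9 in Beige, and 30.2 and 1 in BL6. Among granule genes, Elane had signals of 42.7 and 37.1 in Satin, 30.7 and 7.5 in Beige, and 3.8 and 8.5 in BL6, and Camp, like Elane, did not pass the filter. Signals of Camp were 1.5 to 9.4 and of Mpo 12.8 to 35.2 over all arrays. These 5 markers and S100a9 were picked after their values were seen, and the part of neutrophil number in the S100a8 level was not tested. Of 10 leukocyte genes tested 0 were called with limma and 4 had an unadjusted p under 0.05, against 12.6% of all genes (median difference 0.50). Coro1a and Lcp1, actin-binding proteins of leukocytes, differed by 1.12 (adjusted p = 0.173) and 0.52 (adjusted p = 0.195).

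The genes whose course over the 6 arrays was most like that of 4 of the genes are given as a description, by Pearson's r of log2 levels over all genes tested. The arrays share strain, replicate number and pancreatic content, and 6 points leave room for many high values. For Igha they were Bscl2 (r = 0.994), Tgfb1 (0.99), Marveld2 (0.988), Txnrd1 (0.985) and Stc1 (0.985), and 21 genes had an r over 0.95. For Jchain they were Psen2 (0.984), Gars (0.976), Plod3 (0.972), Abhd17a (0.971) and Cnp (0.969), out of 18 over 0.95. For Bpifb1 they were Stmn1 (0.993), Rnf149 (0.991), Pga5 (0.984), Strn (0.979) and Alad (0.979), out of 48. For Reg3g they were Il34 (0.983), Klhdc3 (0.976), Edem3 (0.972), Zc3h15 (0.97) and Ctsl (0.967), out of 11. None of the other 9 genes described here was among the 5 most alike of Igha, Jchain, Bpifb1 or Reg3g.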

How the data were processed

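The deposited values are linear intensity values, 1 signal for each of 22690 probe sets on each of 6 Affymetrix arrays, as the authors deposited them. Per the labels' protocols, total RNA came from a Trizol extraction and the array target was biotinylated cRNA. How probe intensities were summarised or scaled is not given in the sources used here. Strain and replicate number came from each array's title, and 0 value columns were left unused. The design text speaks of 2 mice a strain without tying each array to 1 mouse, so p-values measure the spread between arrays, which may be technical. The 15 pairs of arrays shared 35 to 88 equal values each, so none is a repeat of another.

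The 64 control probe sets were left out. Signals became log2(signal + 32) and were quantile normalized. Of the other 22626 probe sets, 20380 had 1 symbol in the platform annotation, 691 several and 1555 none, and 20351 were found in the RefSeq gene table of GRCm38.p6, with 0 symbols changed. The brightest probe set stood for its gene (12393 genes). Those whose mean fell in the lowest 30% (under 5.74) were dropped, leaving 9395. Satin minus the mean of Beige and BL6, and Beige minus BL6, were fitted in 1 model with strain only in limma 3.58.1 (R 4.3.3; trend, 3 residual degrees of freedom, 9.24 after moderation), two-sided, with Benjamini-Hochberg adjustment over all genes tested and a threshold of 0.05. The number of arrays limits the precision. Alternatives keep each gene's probe set, except the mean of probe sets. Alternatives changed the pseudocount, scaling, filter, probe set rule, variance trend and replicate block, left out each array, and added a pancreatic covariate (the last after the data were seen).

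The deviations of same-numbered arrays from their strain means correlated at 0.189 (Satin and Beige), 0.272 (Satin and BL6) and 0.118 (Beige and BL6) across genes, over the 0.1 at which numbers count as pairing the arrays here, though no label says that they do. The reported differences and p-values come from the fit without the pairing, and a block for the replicate number is an alternative. Named were all 10 genes, up to 6 called genes of each list in a comparison (where a list had none, the 2 of smallest p), the 5 genes most alike to Igha, Jchain, Bpifb1 and Reg3g, Foxq1 and Lyst, and markers beside a result. Genes outside this rule are said to be so, and the called markers of small intestinal epithelium are given as a count only. The genes, lists and tests were chosen with earlier results of these data known. Upstream sequences are RefSeq's, on GRCm38.p6.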

Additional observations from a re-analysis of the deposited data

How the results depend on the processing

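In Satin against the mean of the controls 135 genes were called (41 higher, 94 lower), against 1519 as deposited (1457 and 62), 2488 scaled to the hybridization controls (2431 and 57), 92 with median centring (46 and 46), 36 without the variance trend, and 29 to 294 with 1 array left out. As deposited and scaled to the hybridization controls, the bulk of genes shifted towards Satin, by a median of 0.43 and 0.50. Between Beige and BL6, 0 were called, against 3 as deposited, 35 scaled to the hybridization controls and 0 to 8 with 1 array left out. Of the listed defence genes 4 were called in Satin, against 15 as deposited, 21 scaled to the hybridization controls, 2 with a pseudocount of 8, median centring, no filter or the replicate block, 1 without the trend and 0 to 6 with 1 array left out. Between Beige and BL6 the count was 0, against 1 as deposited and scaled to the hybridization controls and 0 to 1 with 1 array left out. Apart from Ang and Tgfbr2, the replicate block changed no call of a list gene named by the rule, nor of the 9 genes between Beige and BL6. Other genes named here, such as Gast, Cd177 and Csf3r, were not followed across settings. Direction turned for Slpi between Beige and BL6 (0.0636 as deposited, 0.241 with the hybridization controls, 0.0713 with the pancreatic covariate, 0.358 without Beige replicate 2, 0.729 without BL6 replicate 2, and down to -0.853 without BL6 replicate 1) and Ltf (0.0494 with the hybridization controls, -0.594 to 0.296 with 1 array left out) and, in Satin, for Sdc1 (0.109 as deposited, 0.195 with the hybridization controls). None of these passed the test in any setting. Satin differences lay between 2.75 and 3.91 for Igha, 1.65 and 2.6 for Jchain, 0.513 and 1.18 for Dmbt1, and -1.53 and -0.644 for Slpi over all settings. The causes were not tested.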
